A study of Mus musculus with 4 samples.

Results

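Solute carriers are membrane proteins that move nutrients, ions, metals and organic molecules across the plasma membrane and the membranes of organelles, and this family was followed in testis RNA of Tslc1-/- and Tslc1+/+ mice. Members were all genes whose symbol begins with Slc and a family number and which a probe set of the array names alone, each represented by its probe set of highest mean signal over the 4 arrays. This gave 151 genes out of 8251 named in this way, on 185 probe sets. Of the 151, 102 had a mean signal of at least 200 and were tested, and 49 were dimmer and are given as levels only. The study hybridised total RNA of whole testis to 4 Affymetrix MG-U74Av2 arrays, 2 from Tslc1+/+ and 2 from Tslc1-/- males, all C57BL/6J and 16 weeks old, with no treatment named. Tslc1, now called Cadm1, encodes an immunoglobulin-superfamily adhesion molecule made by germ cells. The labels give neither the deleted part of the gene nor whether its loss was restricted to a cell type, and they leave unsaid whether each array holds RNA of a different mouse. The p-values therefore describe the scatter of these 4 arrays alone, part of which may be technical.

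Carriers work by alternating a binding site between the sides of a membrane, either letting a solute run down its gradient or coupling it to sodium, protons or a counter-solute. In the seminiferous tubule, meiotic and haploid germ cells lie behind the barrier formed by Sertoli cells and depend on what those cells pass on, lactate above all, while sperm later rely on hexose carriers, ion exchangers and carnitine uptake. Carriers that act in pairs or with a helper are common: a heavy chain brings some amino acid carriers to the surface, and the immunoglobulin-like protein basigin does so for monocarboxylate carriers.

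None of the 102 tested carrier genes passed the test between genotypes (limma, Benjamini-Hochberg adjusted p under 0.05 over all 7975 tested probe sets), against 1.08% of all tested probe sets (0.238% called higher and 0.84% called lower). The smallest adjusted p among the probe sets representing the genes was 0.114, that of the zinc importer gene Slc39a1. A second Slc2a3 probe set, which does not represent its gene, had 0.113 in the same fit. At an unadjusted p under 0.05 there were 9 members, 6 higher and 3 lower in Tslc1-/-, or 8.82% of the family against 10% of all tested probe sets. The signals of the genotypes did not overlap for 42 of 102 members, or 41.2%, against 40.0% of all tested probe sets. They lay higher in Tslc1-/- for 27 members, 26.5% against 21.5%, and lower for 15 members, 14.7% against 18.5%. The median log2 change of the family was 0.05 (-0.0026 without Tslc1+/+ replicate 1), against 0.02 over all tested probe sets, and the median size of a change was 0.23 against 0.22. The family thus had shares close to those of the array as a whole.

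What the arrays could have called depended on signal. For the 20 members of mean signal 2000 and over the median standard error of a log2 change was 0.15, and the median of the smallest difference that would have passed was 0.74, or 1.67-fold. None of these 20 differed by as much as 0.5: their changes ran from -0.24 to 0.33. For the 42 members between 500 and 2000 the corresponding median was 1.21, or 2.31-fold, and for the 40 members between 200 and 500 it was 2.43, or 5.39-fold. The larger fitted changes lay among the dim members, where 17 of 40 had a size of at least 0.5. A dim member that did not pass is therefore not shown to be alike in both genotypes.

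**Figure D1:**
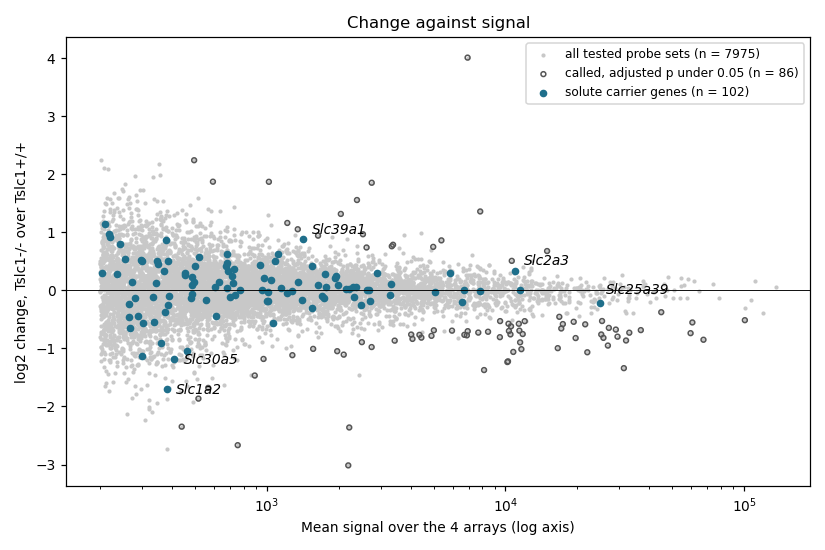
Log2 change of signal + 50 from Tslc1+/+ to Tslc1-/- (vertical axis) against mean signal over the 4 arrays (log axis) for all 7975 tested probe sets (grey), the 86 that passed (open circles) and the 102 solute carrier genes (blue). No carrier is among the open circles, and those beyond 1 in size, such as Slc1a2 at -1.70, have mean signals below 500.

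The arrays had median signals of 361.5 and 378 in Tslc1+/+ against 377.7 and 365.15 in Tslc1-/-, and pairs of arrays correlated across tested probe sets with r from 0.923 to 0.938 (probe sets are not independent replicates). Cadm1 fell in Tslc1-/-: its brightest probe set read 3449.5 and 4028 in Tslc1+/+ against 775.9 and 604.5 in Tslc1-/- (limma, adjusted p = 0.000183). Another read 3960 and 3925 in Tslc1+/+ against 443.5 and 444.9 in Tslc1-/- (limma, adjusted p = 2.31e-05). Both go the way of the labels, and the names of both carry a letter suffix (_s and _f). Whether these probe sets lie in the deleted part is not given in the labels. Most testis markers were present: of 13 elongating spermatid, 8 round spermatid and 11 Sertoli cell genes on the array none had a mean signal under 200. Of 7 spermatocyte genes 1 was below 200 (Sycp3, at 13.3), and of 8 spermatogonium genes 1 (Gfra1, at 145.1). Epididymis markers were dim, with 2 of 3 below 200 (Lcn5 and Gpx5), as were 3 of 7 macrophage genes (Adgre1, Ptprc and Lyz2). Of 3 fat genes only 1 was below 200, and Adipoq and Lep had mean signals of 964.9 and 851.8. Of the 13 elongating spermatid genes 6 were called lower in Tslc1-/- and none was called higher. Their changes were negative for 10 and positive for 3, among them Haspin, which lay higher without overlap. The summed signal of the 13 was 616512 and 623758 in Tslc1+/+ against 454070 and 426861 in Tslc1-/-. Of the 8 round spermatid genes 4 were called lower, with sums of 201465 and 208777 against 142224 and 142536. Their changes were negative for 7 and positive for 1, Acr, which lay higher without overlap. The Sertoli cell sums were 28833 and 28325 in Tslc1+/+ against 30139 and 28971 in Tslc1-/-, with none of 11 called. Of the other markers, Pgk2 was called lower among 6 tested spermatocyte genes. Actg2 was called lower among 7 genes listed as myoid, on a probe set whose name has a suffix for possible cross-hybridisation. Changes of these 7 were negative for 5 and positive for 2, with Acta2 at 0.14, Mylk at 0.09 and Tagln at -0.01. None of 7 spermatogonium, 9 Leydig cell, 4 endothelial, 4 macrophage, 2 erythrocyte, 2 fat and 1 epididymis genes was called. No marker was listed at 0. Whether these marker differences take part in any carrier difference was not tested. In whole testis, fewer cells of a type and less RNA per cell cannot be told apart.

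Hexose carriers held some of the brightest probe sets of the family. Slc2a3, the high-affinity glucose carrier of germ cells and neurons, read 10176 and 9166 in Tslc1+/+ against 13507 and 10992 in Tslc1-/-. Both Tslc1-/- arrays were above both Tslc1+/+ arrays, by 0.33 on the log2 scale with a standard error of 0.12, which did not pass (limma, adjusted p = 0.325). A second Slc2a3 probe set read 5079 and 5608 in Tslc1+/+ against 7490 and 7104 in Tslc1-/-, again without overlap, with a log2 change of 0.45 and no call (limma, adjusted p = 0.113). The higher Slc2a3 readings thus came from 2 separate probe sets of the gene, and neither is independent of the other, since the same RNA was hybridised.

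Slc2a5, the fructose carrier found in sperm, read 4939 and 5286 in Tslc1+/+ against 5206 and 4843 in Tslc1-/-, with overlap and a 95% interval of the log2 change from -0.28 to 0.23. Slc2a8, a hexose carrier of intracellular membranes that is strong in testis, read 3300 and 3052.5 in Tslc1+/+ against 3942 and 2970 in Tslc1-/-, and its genotypes also overlapped. Slc50a1, the mammalian member of a sugar efflux family, lay higher in Tslc1-/- without overlap at 484.3 and 330.4 against 724.5 and 538.1 (limma, adjusted p = 0.621). The other 5 sugar carriers were below 200, among them Slc2a1, the general glucose carrier, at 275.2 and 126.5 in Tslc1+/+ against 40.9 and 67.0 in Tslc1-/-, and the sodium-coupled Slc5a1. Of the 4 tested sugar carriers none passed, and their median log2 change was 0.22 (0.055 without Tslc1-/- replicate 1 and 0.40 without Tslc1-/- replicate 2).

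Monocarboxylate carriers take up and release lactate and pyruvate. Slc16a7, the high-affinity form found on germ cells, read 6590 and 6798 in Tslc1+/+ against 6433 and 7054 in Tslc1-/-, so the arrays of the genotypes overlapped, and the 95% interval of the log2 change ran from -0.23 to 0.25. Slc16a8 was dim at 274.3 and 566.0 against 478.0 and 176.4, and Slc16a1, the general lactate carrier, was below 200 on average. Bsg, the gene of basigin, which carries these proteins to the membrane, read 18872 and 19279 in Tslc1+/+ against 19148 and 19995 in Tslc1-/-, a log2 difference of 0.04 (limma, adjusted p = 0.925). Its arrays overlapped between genotypes as well. Of the other chaperones of this kind, Emb read 491.9 and 390.4 against 511.1 and 858.9, and Nptn 553.1 and 746.0 against 344.5 and 663.1, neither with a call.

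**Figure D2:**
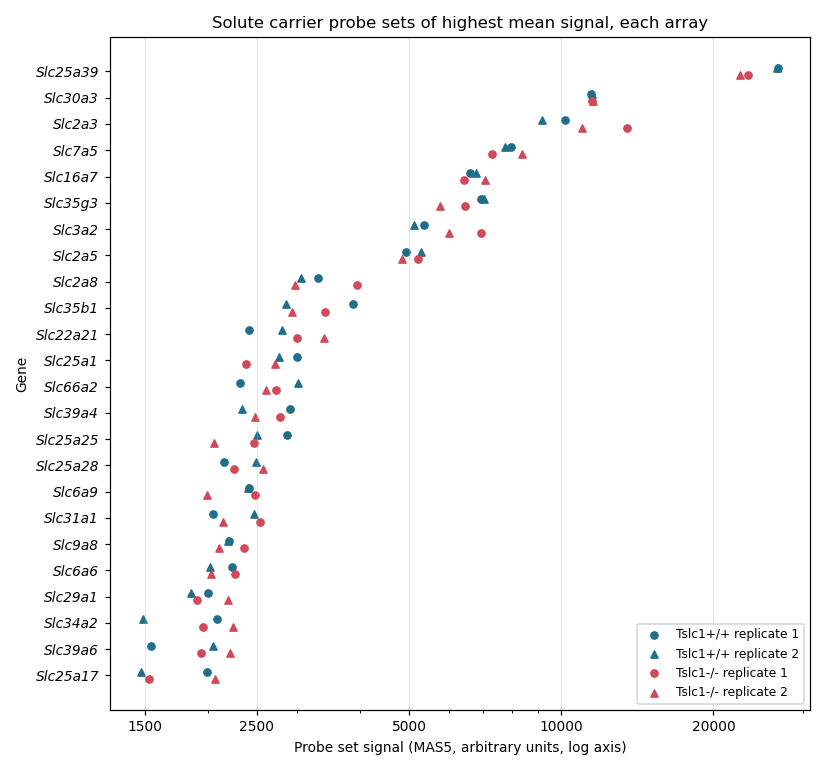
Signal on each array (MAS5 units, log axis) of the 24 solute carrier genes of highest mean signal, Tslc1+/+ in blue and Tslc1-/- in red, replicate 1 as circles and replicate 2 as triangles. Slc25a39 lies lower and Slc2a3 and Slc3a2 lie higher on both Tslc1-/- arrays, while the arrays of Slc7a5, Slc16a7 and Slc2a5 are mixed. Signals of different probe sets depend on probe affinity, so their order is not an order of RNA amounts.

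Amino acid carriers were the largest class, with 32 genes, of which 18 were tested and none passed. Their median log2 change was -0.10, and it was 0.0088 without Tslc1-/- replicate 2, 0.00063 without Tslc1+/+ replicate 2 and -0.0045 over the members of mean signal 500 and over. The pair that exchanges large neutral amino acids consists of the light chain Slc7a5 and the heavy chain Slc3a2. Slc7a5 read 7963 and 7727 in Tslc1+/+ against 7298 and 8377 in Tslc1-/-, overlapping, with a 95% interval from -0.24 to 0.24. Slc3a2 read 5353 and 5115 in Tslc1+/+ against 6931.5 and 6010 in Tslc1-/-, both higher, by 0.30 on the log2 scale (standard error 0.12; limma, adjusted p = 0.403). The heavy chain gene thus lay higher on both Tslc1-/- arrays and the light chain gene did not, a difference between them that was not tested. The other light chains were dimmer: Slc7a8 read 325.9 and 498.9 against 514.2 and 483.8 and Slc7a7 501.6 and 689.9 against 520.2 and 520.3, with overlap in each.

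Slc1a2, a sodium-coupled glutamate carrier best known from glia, had the largest fitted change of the family. It read 606.3 and 612.6 in Tslc1+/+ against 174.5 and 133.1 in Tslc1-/-, with means of 609 ± 4.45 and 154 ± 29.3 (SD, n = 2), so that the fitted log2 difference was -1.70 (standard error 0.44; limma, adjusted p = 0.128). The arrays of each genotype lay close together, yet at this signal the modelled spread is wide and the change did not pass. Among glycine, taurine and amine carriers, Slc6a9 (glycine) read 2416 and 2399 against 2482 and 1996 and Slc6a6 (taurine) 2233 and 2020 against 2268.5 and 2029, both with overlap. A second Slc6a6 probe set, higher in Tslc1-/-, read 306.7 and 235.8 against 364.7 and 551.1. Slc6a13, a carrier of gamma-aminobutyric acid and taurine, lay higher in Tslc1-/- at 665.7 and 472.3 against 876.5 and 677.1. Slc6a2, the noradrenaline carrier, had a fitted change of -1.05, on arrays so far apart, 246.4 and 1058.5 against 447.0 and 103.9, that the genotypes overlapped. Slc6a4, the serotonin carrier, lay higher at 163.9 and 321.2 against 345.8 and 361.7, and Slc7a9, a light chain for cystine, lower at 485.2 and 334.0 against 235.8 and 288.4.

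The sodium-coupled neutral amino acid carriers of the Slc38 family include those by which Sertoli cells handle glutamine. All 4 tested members had a negative log2 change, from -0.65 to -0.10, and none passed, while 52.5% of all tested probe sets had a positive one. Slc38a5 read 1549 and 1841.5 in Tslc1+/+ against 1728 and 1063 in Tslc1-/-, Slc38a4 305.9 and 383.3 against 234.9 and 411.8, and both overlapped. Slc38a2 lay lower at 299.1 and 373.1 against 215.2 and 177.6 (limma, adjusted p = 0.747), and so did Slc38a10 at 1777 and 1747 against 1744 and 1551 (limma, adjusted p = 0.893). Further Slc38a2 probe sets, each below 200 on average, differed in sign. Without the signal minimum their log2 changes were -1.51, 0.39 and 0.30. The negative sign rested on single arrays for Slc38a5, at 0.032 without Tslc1-/- replicate 2, and for Slc38a4, at 0.23 without Tslc1-/- replicate 1 and 0.027 without Tslc1+/+ replicate 2. Below 200 were 14 amino acid carriers, including the glutamine carrier Slc1a5, the cystine exchanger Slc7a11, the cationic amino acid carrier Slc7a1 and the creatine carrier Slc6a8.

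Mitochondrial carriers of the Slc25 family move metabolites through the inner mitochondrial membrane, apart from Slc25a17, which serves the peroxisome. Of 20 genes 18 were tested and none passed, with 6 higher and 4 lower in Tslc1-/- without overlap, beside 21.5% and 18.5% of all tested probe sets. Their median log2 change was 0.10, and it was 0.053 when suffixed probe sets were dropped. Leaving out Tslc1+/+ replicate 1 gave 0.050, and leaving out Tslc1+/+ replicate 2 gave -0.055. Slc25a39, a carrier needed for mitochondrial glutathione import, had the brightest probe set of the family. It read 26868 and 26710.5 in Tslc1+/+ against 23405 and 22535 in Tslc1-/-, with means of 26789 ± 111 and 22970 ± 615 (SD, n = 2). The log2 difference of -0.22 (standard error 0.08) did not pass (limma, adjusted p = 0.32), and it was -0.05 after quantile normalization of the arrays. Among the brightest probe sets the value of this gene thus depended on how the arrays were scaled.

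The citrate carrier Slc25a1 read 3005 and 2763 in Tslc1+/+ against 2379.5 and 2712 in Tslc1-/-, lower without overlap. Its other tested probe set read 1066 and 861.9 against 1258 and 1035, with overlap and the opposite sign. Slc25a25, an ATP-magnesium and phosphate carrier, lay lower at 2874 and 2498 against 2469 and 2058. Slc25a10, the dicarboxylate carrier, lay higher at 1324 and 1300 against 1829 and 1722, a log2 difference of 0.42 (limma, adjusted p = 0.422), as did Slc25a51, the carrier of mitochondrial NAD, at 561.1 and 486.8 against 878.6 and 791.8 (limma, adjusted p = 0.431). Slc25a20, which brings acylcarnitines in for fatty acid oxidation, read 1434 and 1726 against 1985 and 1851, and Slc25a36, a pyrimidine nucleotide carrier, 871.2 and 886.5 against 1025 and 1553, both higher without overlap. Members of this family therefore lay on both sides without a call. Slc25a44, of the same family, also lay higher at 492.6 and 442.5 against 553.4 and 494.3.

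The adenine nucleotide exchangers Slc25a4 and Slc25a5 swap ADP for ATP. Slc25a4 read 1751 and 1889 in Tslc1+/+ against 1758.5 and 1541 in Tslc1-/-. Slc25a5 read 728.6 and 1090 against 1047 and 1039.5 on its brightest probe set, whose name has a suffix for possible cross-hybridisation, while 2 other tested probe sets had log2 changes of -1.29 and -0.38 against 0.21. The probe sets of Slc25a5 thus disagreed, and none passed. The phosphate carrier gene Slc25a3 read 113.3 and 136.8 against 195.9 and 422.5, near the lower limit of signal. Slc25a47 lay lower at 407.2 and 518.0 against 404.8 and 112.7 (limma, adjusted p = 0.651), where Tslc1-/- replicate 2 made most of the difference. The voltage-dependent anion channel Vdac3 of the outer membrane read 4561 and 5032 against 4496 and 5378.

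Metal carriers were measured throughout: each of 17 genes had a mean signal of at least 200. None passed, and 5 lay higher and 3 lower in Tslc1-/- without overlap, beside 21.5% and 18.5% of all tested probe sets. The median log2 change was 0.01, and it was 0.33 without Tslc1+/+ replicate 2, -0.052 without Tslc1+/+ replicate 1 and 0.18 over the members of mean signal 500 and over. Slc30a3, which loads zinc into vesicles, was the steadiest bright member. It read 11443 and 11479 in Tslc1+/+ against 11525 and 11534 in Tslc1-/-, and the 95% interval of its log2 change ran from -0.19 to 0.21. Those signals did not overlap between genotypes although the fold between their means was 1.01, and 40.0% of all tested probe sets likewise did not overlap.

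Zinc enters the cytosol through Slc39 carriers and leaves it through Slc30 carriers. Slc39a1, an importer at the plasma membrane, read 1055 and 887.6 in Tslc1+/+ against 1517.5 and 2209 in Tslc1-/-, with means of 971 ± 118 and 1863 ± 489 (SD, n = 2). The fitted log2 difference was 0.89 (standard error 0.22), a 1.85-fold difference that did not pass (limma, adjusted p = 0.114). A second Slc39a1 probe set, of mean signal 168, read 130.9 and 188.5 in Tslc1+/+ against 189.9 and 162.5 in Tslc1-/-, with overlap. Slc39a7, which releases zinc from the endoplasmic reticulum, lay lower at 989.5 and 1578 against 925.4 and 738.6 (limma, adjusted p = 0.497). The other 5 Slc39 genes overlapped, such as Slc39a4 at 2903 and 2341.5 against 2776 and 2475 and Slc39a6 at 1545 and 2051 against 1936 and 2214. The name of that Slc39a4 probe set has a letter suffix (_r). Its other tested probe set was far dimmer, at a mean signal of 322, and overlapped as well.

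Among zinc exporters, Slc30a5 of the secretory pathway read 545.3 and 631.0 in Tslc1+/+ against 209.2 and 253.6 in Tslc1-/-, a log2 difference of -1.18 (limma, adjusted p = 0.26). Its second probe set, below 200 on average, read 225.5 and 247.6 against 117.3 and 66.3, also lower without overlap, and the names of both carry a letter suffix (_i and _r). Slc30a4 lay higher at 582.8 and 543.8 against 795.6 and 802.1 (limma, adjusted p = 0.59), and Slc30a1 of the plasma membrane overlapped at 434.5 and 555.5 against 407.5 and 535.5. Zinc exporters thus lay on both sides, without a call.

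Slc11a2, the proton-coupled importer of ferrous iron, had probe sets that read in opposite directions. The brighter read 798.1 and 947.0 in Tslc1+/+ against 1383 and 1346 in Tslc1-/-, a log2 difference of 0.62 (limma, adjusted p = 0.263). The other read 998.7 and 920.3 in Tslc1+/+ against 475.7 and 719.4 in Tslc1-/-, a log2 difference of -0.67 (limma, adjusted p = 0.413), so both were without overlap and in opposite directions. The gene is known to make transcripts with different 3' ends, and which of them each probe set reads was not analysed here. The copper importer Slc31a1 read 2048 and 2472 against 2540 and 2142.5, the mitochondrial iron carrier Slc25a28 (counted with the Slc25 family) 2152 and 2488 against 2253 and 2571, and both overlapped. The magnesium carrier Slc41a1 lay higher at 582.9 and 712.5 against 830.0 and 727.0. The haem carrier Slc48a1 lay lower at 605.2 and 270.8 against 120.0 and 206.3, with a wide spread in Tslc1+/+ (limma, adjusted p = 0.563). Over the family, 12 tested genes had 13 further tested probe sets, of which 6 had the same sign as the representing one and 7 the opposite sign.

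**Figure D3:**
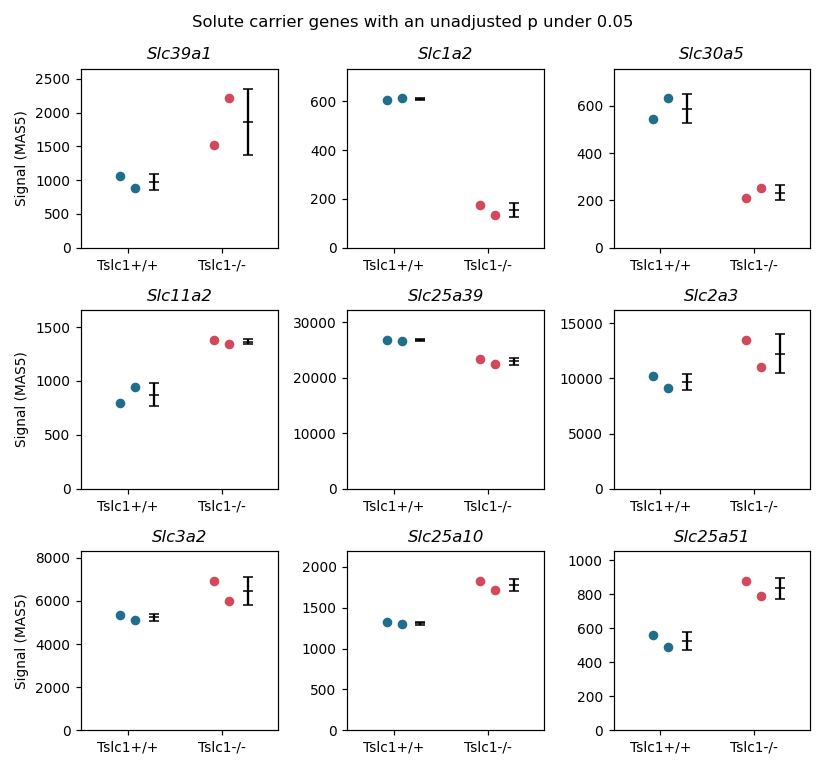
Signal (MAS5 units, axis from 0) on each array of the 9 solute carrier genes with an unadjusted p under 0.05, by genotype, with the mean and SD of 2 arrays as bars beside the points. In each panel the genotypes do not overlap, with means of 609 against 154 for Slc1a2 and of 26789 against 22970 for Slc25a39, and none of the 9 passed after adjustment.

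Sequence before the start of transcription is shown for the pair of brightest carriers of this array that the promoter table holds. It is also shown for the pair with the smallest p between genotypes by representing probe set. The letters can thus be read beside the values, but they do not give a promoter type. Each line gives the 250 bases before a RefSeq start (build GRCm38.p6), 5′ to 3′ in the direction of the gene, with capitals for GGGCGG (GC box), TGACG (the core of a cAMP response element), TATAAA and CCAAT on either strand. Genes can have other starts.
Slc25a39, chr11:102407518-102407767, minus strand: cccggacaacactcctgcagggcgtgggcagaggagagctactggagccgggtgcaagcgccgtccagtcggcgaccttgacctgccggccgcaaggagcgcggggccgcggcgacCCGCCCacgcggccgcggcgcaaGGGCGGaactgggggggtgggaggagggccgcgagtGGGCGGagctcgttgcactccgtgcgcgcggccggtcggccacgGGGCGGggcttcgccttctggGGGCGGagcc
Slc30a3, chr5:31108245-31108494, minus strand: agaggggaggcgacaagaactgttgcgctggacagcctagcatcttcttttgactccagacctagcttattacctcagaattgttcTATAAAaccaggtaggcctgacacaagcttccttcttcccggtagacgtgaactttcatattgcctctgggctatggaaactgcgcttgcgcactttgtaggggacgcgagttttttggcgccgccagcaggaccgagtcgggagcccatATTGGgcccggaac
Slc39a1, chr3:90247942-90248191, plus strand: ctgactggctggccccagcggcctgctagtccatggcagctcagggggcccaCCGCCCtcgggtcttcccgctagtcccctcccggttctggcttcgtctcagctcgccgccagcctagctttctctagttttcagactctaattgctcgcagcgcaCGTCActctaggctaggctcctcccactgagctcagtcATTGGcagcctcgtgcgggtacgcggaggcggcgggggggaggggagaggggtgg
Slc1a2, chr2:102706188-102706437, plus strand: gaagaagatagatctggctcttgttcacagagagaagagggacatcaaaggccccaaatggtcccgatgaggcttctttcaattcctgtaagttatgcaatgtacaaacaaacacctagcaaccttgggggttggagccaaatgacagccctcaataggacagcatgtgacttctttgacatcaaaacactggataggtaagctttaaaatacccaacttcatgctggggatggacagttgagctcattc
The Slc25a39 window was 77.2% G and C with 5 GC boxes and none of the other motifs, that of Slc39a1 was 66.4% with 1 GC box, 1 TGACG and 1 CCAAT, that of Slc30a3 was 53.2% with 1 TATAAA and 1 CCAAT, and that of Slc1a2 was 44.8% with none of these motifs.

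Of the 102 tested carriers 84 had a promoter in the table, and 64.3% of these windows held a GC box, against 42.5% of 40 windows of carriers below 200 and 32.9% of all 27025 windows. TATAAA was in 2 of the tested, 4 of the dim and 3504 of all windows, and TGACG in 26.2%, 17.5% and 17.9%. The palindrome TGACGTCA, which contains TGACG, was in 1 tested and no dim window and in 1.62% of all, and CCAAT was in 32.1%, 22.5% and 34.5%. All were searched on both strands. The letters TGCGCNC, a core of the element through which zinc acts on transcription, were in 4 of 13 metal carrier windows, or 30.8%, against 20.2% of tested carrier windows, 4 of 16 mitochondrial carrier windows and 12.6% of all windows. The related letters TGCACNC were in 2 of the 13 metal windows, or 15.4%, against 10.2% of all. Median G and C content was 60.2% in tested and 60.0% in dim carrier windows, with a median of 13 and 12 CpG, and the difference in GC-box share was not tested. The table holds genes of every kind, many with low G and C content, and a match is a description of letters, not of binding.

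Ion carriers of the sodium, proton, chloride, bicarbonate and calcium class set the pH, volume and salt of cells and of tubule fluid. Of 17 genes 10 were tested and none passed. The median log2 change was 0.13, and it was 0.030 without Tslc1+/+ replicate 2 and 0.27 without Tslc1+/+ replicate 1. Slc9a8, a sodium-proton exchanger of the Golgi and acrosome region, read 2203 and 2196 in Tslc1+/+ against 2354 and 2101 in Tslc1-/-, and Slc4a2, a chloride-bicarbonate exchanger, 1956 and 1249 against 1723 and 1639, both overlapping. Slc12a2, the sodium-potassium-chloride cotransporter that mouse spermatogenesis requires, read 745.7 and 714.1 against 652.3 and 696.2, lower by 0.11 on the log2 scale with a 95% interval from -0.65 to 0.43. The potassium-chloride carriers Slc12a4, at 344.0 and 171.2 against 427.9 and 562.3, and Slc12a5, at 202.0 and 84.6 against 298.0 and 298.4, lay higher at low signal (limma, adjusted p = 0.563 and 0.711). Slc4a1, the anion exchanger of red cells, also lay higher at 185.2 and 297.9 against 335.3 and 380.1, and the 2 tested erythrocyte markers lay opposite ways. The globin gene Hba-a1 read 897.4 and 1136 in Tslc1+/+ against 1863 and 1616 in Tslc1-/-, and Alas2, of heme synthesis, 966.2 and 1037 against 627.4 and 736.8. Their part in the Slc4a1 values was not tested. Below 200 were 7 members, among them the sodium-calcium exchanger Slc8a1, the sulfate carrier Slc26a2 and the sperm-linked exchanger Slc9b2.

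These sodium-coupled carriers run on the gradient made by the sodium pump. Its subunit gene Atp1b3 read 21352 and 19779 in Tslc1+/+ against 15280 and 16182 in Tslc1-/-, lower by 0.39 on the log2 scale, and did not pass (limma, adjusted p = 0.0814). It passed with the replicate number as a block (limma, adjusted p = 0.0117) and without suffixed probe sets (0.0469), in a range of 0.0117 to 0.643 over the alternatives. The summed elongating spermatid markers given above were likewise lower, and their part in this was not tested. Of 3 listed pump subunits with a tested probe set none passed, with Atp1b1 at 734.0 and 729.5 against 515.1 and 683.3. Of 14 subunit genes of the vacuolar proton pump, which acidifies vesicles and the acrosome, none passed either: 3 lay higher and 5 lower without overlap, beside 40.0% of all tested probe sets without overlap. The brightest, Atp6v1d, had a log2 change of 0.00, and Atp6v0b had one of -0.46 (limma, adjusted p = 0.301).

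Carnitine and organic ion carriers were tested for 7 of 15 genes, with none passing. The median log2 change was 0.24, and it was 0.091 without Tslc1-/- replicate 1 and 0.0078 over the members of mean signal 500 and over. Slc22a21, a carnitine carrier strong in testis, read 2411 and 2802 in Tslc1+/+ against 2997 and 3398 in Tslc1-/-, higher without overlap, a log2 difference of 0.29 (limma, adjusted p = 0.558). Slc22a5, the general carnitine carrier, was dimmer and overlapped at 370.6 and 518.5 against 560.5 and 492.9. Slc22a18 lay higher at 647.5 and 936.6 against 996.5 and 1162, and Slc22a17, a receptor for a siderophore-binding protein, lower at 1602.5 and 1387 against 1343 and 1289. Of the bile acid carriers, Slc10a1 was below 200 and read 256.1 and 340.8 in Tslc1+/+ against 72.7 and 88.3. Its other probe sets were dimmer and overlapped, with log2 changes of 0.28 and 0.37 without the signal minimum. The tested genes of its family, Slc10a3 and Slc10a6, overlapped as well, with log2 changes of 0.0078 and 0.45. Outside the symbol rule, the organic anion carrier Slco3a1 read 604.1 and 1127 in Tslc1+/+ against 1565 and 1316 in Tslc1-/-, higher without a call (limma, adjusted p = 0.35).

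Nucleotide sugar carriers feed glycosylation in the Golgi and endoplasmic reticulum. Of 11 genes in the Slc35 and Slc37 families 7 were tested and none passed. Their median log2 change was -0.07, and it was 0.14 without Tslc1+/+ replicate 1 and 0.035 without Tslc1-/- replicate 2. Slc35g3, an orphan member made in testis, read 6951 and 7036 in Tslc1+/+ against 6463 and 5751 in Tslc1-/-, lower without overlap, with a log2 change of -0.20 (standard error 0.11; limma, adjusted p = 0.617). Slc35b1, which supplies ATP to the endoplasmic reticulum, overlapped at 3876 and 2856 against 3412 and 2932. Slc37a4, the glucose-6-phosphate carrier of that organelle, lay lower at 709.4 and 710.5 against 589.8 and 433.9, and Slc35d1 higher at 573.3 and 689.3 against 865.9 and 793.8, again without a call.

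Vitamin, choline and cofactor carriers gave no call among 7 tested of 10 genes. The median log2 change was 0.10, and it was 0.19 when suffixed probe sets were dropped. Leaving out Tslc1+/+ replicate 1 gave -0.011, and leaving out Tslc1+/+ replicate 2 gave 0.18. Slc23a3, an orphan relative of the ascorbate carriers, read 1257 and 1298 against 1176 and 1362, and the reduced folate carrier Slc19a1 638.5 and 696.7 against 641.2 and 744.0. A second Slc19a1 probe set at a mean signal of 221 had a fitted log2 difference of -0.99 (limma, adjusted p = 0.68). Slc5a6, the carrier of biotin and pantothenate, lay higher at 306.3 and 312.8 against 390.8 and 534.5, as did the ascorbate carrier Slc23a2 at 364.9 and 281.2 against 463.0 and 379.0. Slc46a1, the proton-coupled folate carrier, had the highest fitted change of the family, 1.14, on signals of 70.2 and 148.7 against 431.5 and 190.6 (limma, adjusted p = 0.686). Within each genotype its arrays differed more than 2-fold from each other.

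Smaller classes were likewise without a call. The nucleoside carrier Slc29a1 read 1999 and 1852 in Tslc1+/+ against 1901 and 2195 in Tslc1-/-, overlapping. The phosphate carrier Slc34a2 read 2086 and 1490 against 1953 and 2239, and Slc20a1, a phosphate carrier of another family, 621.4 and 583.4 against 660.1 and 892.8. Of the fatty acid proteins, Slc27a1 read 1031 and 954.6 against 1360 and 687.5 and Slc27a3 502.1 and 230.9 against 128.4 and 347.4. Slc66a2, whose family lies outside the classes used here, read 2318 and 3017.5 against 2729 and 2607. The peptide carrier Slc15a2, at 60.2 and 322.2 against 125.8 and 306.3, had the lowest mean signal tested, 203.6, next to Slc46a1 at 210.3 and Slc25a3 at 217.1. Just under the limit lay Slc6a15 at 197.0, Slc7a6 at 196.8 and Slc35e4 at 193.1.

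**Figure D4:**
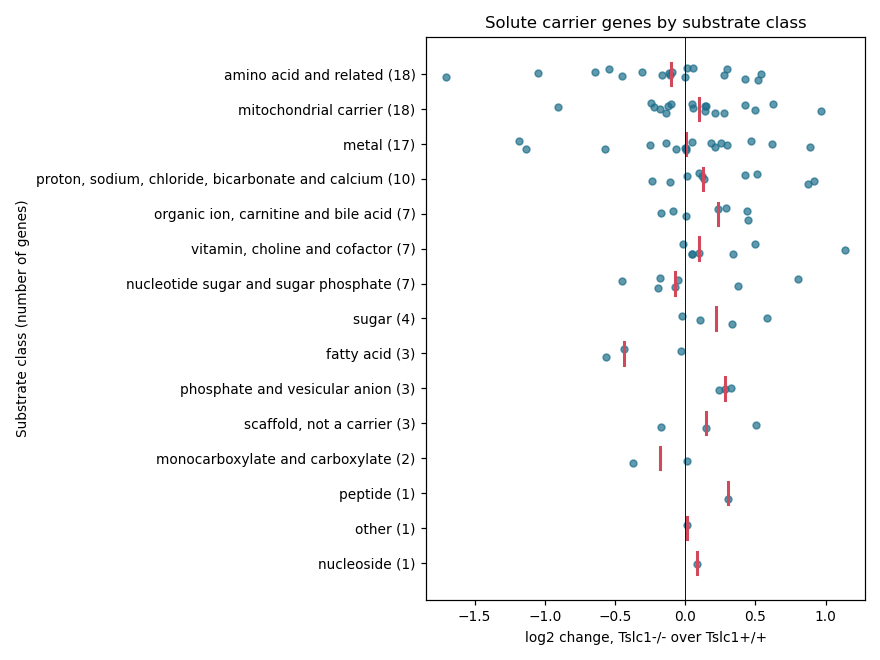
Log2 change (Tslc1-/- over Tslc1+/+) of each of the 102 tested genes by substrate class, with the number of genes in parentheses, each point a gene and each red bar the class median (points are spread vertically at random). Class medians lie between -0.44 for the 3 fatty acid proteins and 0.31 for the single peptide carrier, which without single arrays ran from -1.14 to 0.013 and from -0.57 to 1.18, and the amino acid, mitochondrial and metal classes of 17 or 18 genes have medians of -0.10, 0.10 and 0.01.

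The symbol rule also took in 3 genes that encode no carrier. Slc9a3r1 and Slc9a3r2 are PDZ scaffolds that tether exchangers to the cytoskeleton, and Slc4a1ap is an adaptor first found with an anion exchanger. They read 1060 and 1439 against 1895 and 993.4, 93.2 and 500 against 588.7 and 199.1 and 1151 and 981.6 against 1054 and 830.5, overlapping in each. Outside the family, Pdzk1, a related PDZ scaffold that binds several carriers, fell in Tslc1-/- on its brightest probe set, from 2745 and 3001 to 1559 and 1093, a log2 difference of -1.11 (standard error 0.19; limma, adjusted p = 0.0202). It was the single call among 6 listed chaperones and scaffolds, of which 5 did not pass. A second Pdzk1 probe set read 904.7 and 1011 in Tslc1+/+ against 889.3 and 1161 in Tslc1-/-, a log2 difference of 0.08 (limma, adjusted p = 0.941), so the probe sets of Pdzk1 disagreed. The call did not hold without Tslc1-/- replicate 2 (limma, adjusted p = 0.135), without Tslc1+/+ replicate 1 (0.113) or without Tslc1+/+ replicate 2 (0.161), and it held without Tslc1-/- replicate 1 (0.0277).

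Carriers listed for germ cells or sperm and those listed for the supply of germ cells by Sertoli cells can be set beside the marker genes. Of 18 genes in the first list 8 were named alone by a probe set and 7 were tested, with 0 called, 6 positive changes and a median log2 change of 0.10 (0.031 to 0.16 without single arrays). Their summed signal over the 7 was 31604 and 30373 in Tslc1+/+ against 36078 and 32925 in Tslc1-/-, while the summed elongating and round spermatid markers were lower in Tslc1-/-. Of 15 genes in the second list 8 were tested, with 0 called and a median of -0.11 (-0.17 to 0.015 without single arrays), and sums of 16816 and 17218 against 18052 and 17396. Both sums were led by a single gene each, Slc2a3 and Slc7a5. The 7 listed germ cell or sperm carriers, as a sum, thus did not read lower with the spermatid markers, a difference that was not itself tested. The summed spermatocyte markers, 91992 and 95889 in Tslc1+/+ against 95306 and 87351 in Tslc1-/-, overlapped between genotypes. Bright carriers outside the first list lay both lower (Slc25a39, Slc35g3) and higher (Slc3a2) in Tslc1-/- without overlap.

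Members above the signal limit were also counted by chromosome, with no test. Of 8 carrier genes on the X chromosome, which is silenced during male meiosis, 4 had a mean signal of at least 200, and of 143 autosomal ones 98 did, or 68.5%. Over all genes the shares were 57.5% of 259 X-linked and 73.2% of 7969 autosomal genes. The X-linked members above the limit were the glutamine carrier Slc38a5, the ADP-ATP exchanger Slc25a5, Slc10a3 and Slc25a53. Those below it were Slc35a2, Slc7a3, Slc6a8 and Slc25a14.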

How the data were processed

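Total RNA of whole testis was hybridised to 4 arrays, 2 per genotype. The deposited values are probe set signals, that is intensities on a linear scale, made by the authors with MAS5 and scaled to a target intensity of 1000, per the labels and the submitters' processing notes. MAS5 subtracts background within each array, so no other background correction was tried, and no slide or scan batch was given.

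Genes were named by the platform annotation, with symbols matched to RefSeq (GRCm38.p6) by Entrez identifier for all 151 members. Left out was 1 probe set that names several genes, a carrier among them. Of the 102 tested members 6 are represented by a probe set whose name has a letter suffix, for some letters a mark of possible cross-hybridisation. They are Slc39a4, Slc23a3, Slc25a5, Slc19a1, Slc30a5 and Slc6a4. Control probe sets were left out, and the 7975 probe sets averaging 200 or more over the arrays were tested on log2(signal + 50) with limma 3.58.1 in R 4.3.3 (lmFit, eBayes with intensity trend), with Benjamini-Hochberg adjustment over all of them and a two-sided threshold of 0.05. A fold change is on that scale and understates the change of dim genes. Differences are given as Tslc1-/- minus Tslc1+/+, intervals are limma's 95% intervals, and the number of arrays limits the precision. A two-sided permutation test of 2 against 2 arrays cannot go below 0.333 and was not used. The fit was tested on simulated data.

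The members, substrate classes, gene lists and marker lists were chosen with earlier results of these data known, and the class of Slc4a1ap was set after the names were seen. Named members are the brightest and the smallest p of each class, the 5 largest rises and falls without overlap, the carriers listed for germ cells and Sertoli cells, and the 3 nearest to 200 on each side. Other members are named for their function after their values were seen. Promoter sequences and symbols are RefSeq's.

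Alternatives were pseudocounts of 10 and 200, a minimum signal of 500 or none, quantile or median scaling, no intensity trend, the mean over a gene's probe sets, no suffixed probe sets, the replicate number as a block, and leaving out each array.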

Additional observations from a re-analysis of the deposited data

How the results depend on the processing

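No solute carrier gene was called under any of the alternatives run except the fit with the replicate number as a block, which called 1, Slc39a1 (limma, adjusted p = 0.0138), and 239 of all probe sets. The labels do not say whether the numbers pair the arrays. Deviations from the genotype means correlated at -0.00119 between arrays of the same number. With 2 arrays per genotype this cannot decide whether they are paired. Over all tested probe sets there were 86 calls, 0 without the intensity trend (limma, with 638 at an unadjusted p under 0.05 in that fit, 7 of them carriers by their representing probe set) and 37 to 43 when an array was left out, where a lone array is assumed to vary like the others. The median log2 change of the family was 0.016 with all probe sets tested and ran from -0.0026 to 0.095 over the fits without an array, being negative without Tslc1+/+ replicate 1. Quantile normalization turned the sign of Slc7a5 (0.033), Slc66a2 (-0.011), Slc9a8 (-0.0071) and Slc6a6 (-0.0195), all near 0. Slc23a3 was at 0.19 without suffixed probe sets and 0.0898 as the mean over its probe sets. Leaving out an array turned the sign of these values, with ranges of -0.10 to 0.094 for Slc7a5, -0.057 to 0.075 for Slc16a7, -0.077 to 0.027 for Slc2a5, -0.094 to 0.31 for Slc2a8, -0.18 to 0.20 for Slc66a2, -0.065 to 0.096 for Slc9a8, -0.064 to 0.093 for Slc6a6, -0.017 to 0.19 for Slc29a1, -0.21 to 0.41 for Slc4a2, -0.64 to 0.032 for Slc38a5, -0.30 to 0.60 for Slc9a3r1, -0.11 to 0.089 for Slc23a3, -0.50 to 0.44 for Slc27a1, -0.00029 to 0.55 for Slc7a8, -0.98 to 0.24 for Slc16a8, -0.46 to 0.23 for Slc38a4, -1.14 to 0.013 for Slc27a3 and -0.57 to 1.18 for Slc15a2. The cause was not tested. Pdzk1 was also not called without the signal minimum (limma, adjusted p = 0.0525), without the trend (0.469) or as the mean over its probe sets (0.294). Atp1b3 passed with the replicate number as a block (limma, adjusted p = 0.0117) and without suffixed probe sets (0.0469). The medians of the substrate classes moved with single arrays, and some changed sign, as given beside most classes. Without single arrays the monocarboxylate median ran from -0.45 to 0.092 and that of the scaffolds from -0.30 to 0.60. The phosphate median ran from 0.0032 to 0.48. The median over carriers of the smallest fold that would have been called was 1.67 for bright, 2.31 for middling and 5.39 for dim members, and members of smaller standard error could be called at smaller folds.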
